A study of Drosophila melanogaster with 3 samples.

Results

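Binding of Atf3 was examined at 10 genes of the unfolded protein response and the integrated stress response of Drosophila melanogaster: Ire1, PEK, Gcn2, Atf6, Xbp1, crc, Hsc70-3, Gp93, Pdi and PPP1R15. They were taken by name from 13945 protein-coding genes in the Ensembl annotation of the dm6 genome, and all 10 were found. Every call of an Atf3 peak whose summit lay within one of these genes, or within 2 kb of either end, was used. The chromatin came from whole embryos aged 0 to 24 hours, males and females together, of a transgenic line that stably makes Atf3 with green fluorescent protein at its carboxyl end (strain A3-3-GFP), and was precipitated through the tag. There were 3 biological replicates of this 1 group, with no treatment and no second genotype, so no groups were compared and no p-value is given. In whole embryos of mixed age, binding in few cells and weak binding in many cannot be told apart.

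The unfolded protein response restores folding capacity when unfolded proteins build up in the endoplasmic reticulum (ER). Sensors in the ER membrane switch on transcription factors, which raise the production of chaperones. The integrated stress response meets it at a shared step, the phosphorylation of the translation factor eIF2alpha, which lowers general protein synthesis and favours translation of ATF4, the product of crc in the fly. Atf3 is a basic leucine zipper protein of the ATF/CREB family, and in mammals its gene is a known target of ATF4.

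Of the 10 genes, 3 had an Atf3 peak at their own promoter in the list passed by the irreproducible discovery rate (IDR): the sensor gene Ire1, the transcription factor gene Xbp1 and the chaperone gene Gp93. A promoter call here has its summit within 500 bp of an annotated transcription start site (TSS) of the gene. The same held for 14.2% of all protein-coding genes. A further 2 genes, Pdi and PPP1R15, had an IDR peak within 2 kb, but at the promoter of a neighbour. The 5 genes with an IDR summit in the gene or its 2 kb flanks compare with 25.8% of all protein-coding genes, and with 28.0% of those whose length lies between that of the shortest and the longest of the 10. When each peak was given only to the gene with the nearest TSS, 2 genes were left, Xbp1 and Gp93, against 13.6% of all protein-coding genes. For promoter peaks the nearest TSS left the same 2 genes, against 1401 of the 13945. The IDR list held no peak in an intron or coding sequence of any of the 10.

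The relaxed list of the pooled replicates, which includes background, gave a wider picture. It held 31 calls at the 10 genes: 12 at promoters, 4 in introns, 4 in coding sequence, 5 upstream and 6 downstream. This is 3.10 calls per gene, against a mean of 2.76 over all protein-coding genes. Of the whole pooled list, 24.6% of calls lay at a promoter of any protein-coding gene. That list is not limited to calls within 2 kb of a gene, so this share and the 12 of 31 have unlike bases. A promoter call was present at 9 of the 10 genes, all but PPP1R15, against 46.8% of all protein-coding genes. The number of TSSs per gene was not matched in this comparison. PEK has 3 TSSs and Hsc70-3 has 4, and their pooled promoter calls lay at internal ones. Introns more than 500 bp from a TSS of the gene held pooled calls at 2 genes, Ire1 and Pdi, against 18.7% of all protein-coding genes. The signal attached to each call is the authors' own value and is used only to rank calls within a list. The IDR list is identical to the 2896 pooled calls of highest signal, with a lowest signal of 79.8, and no other pooled call reached that lowest value before rounding. Among the 6524 protein-coding genes with a pooled promoter call, the median of the strongest signal was 50.5. Among the 9 of the 10 stress genes with one it was 62.3.

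**Figure D1:**
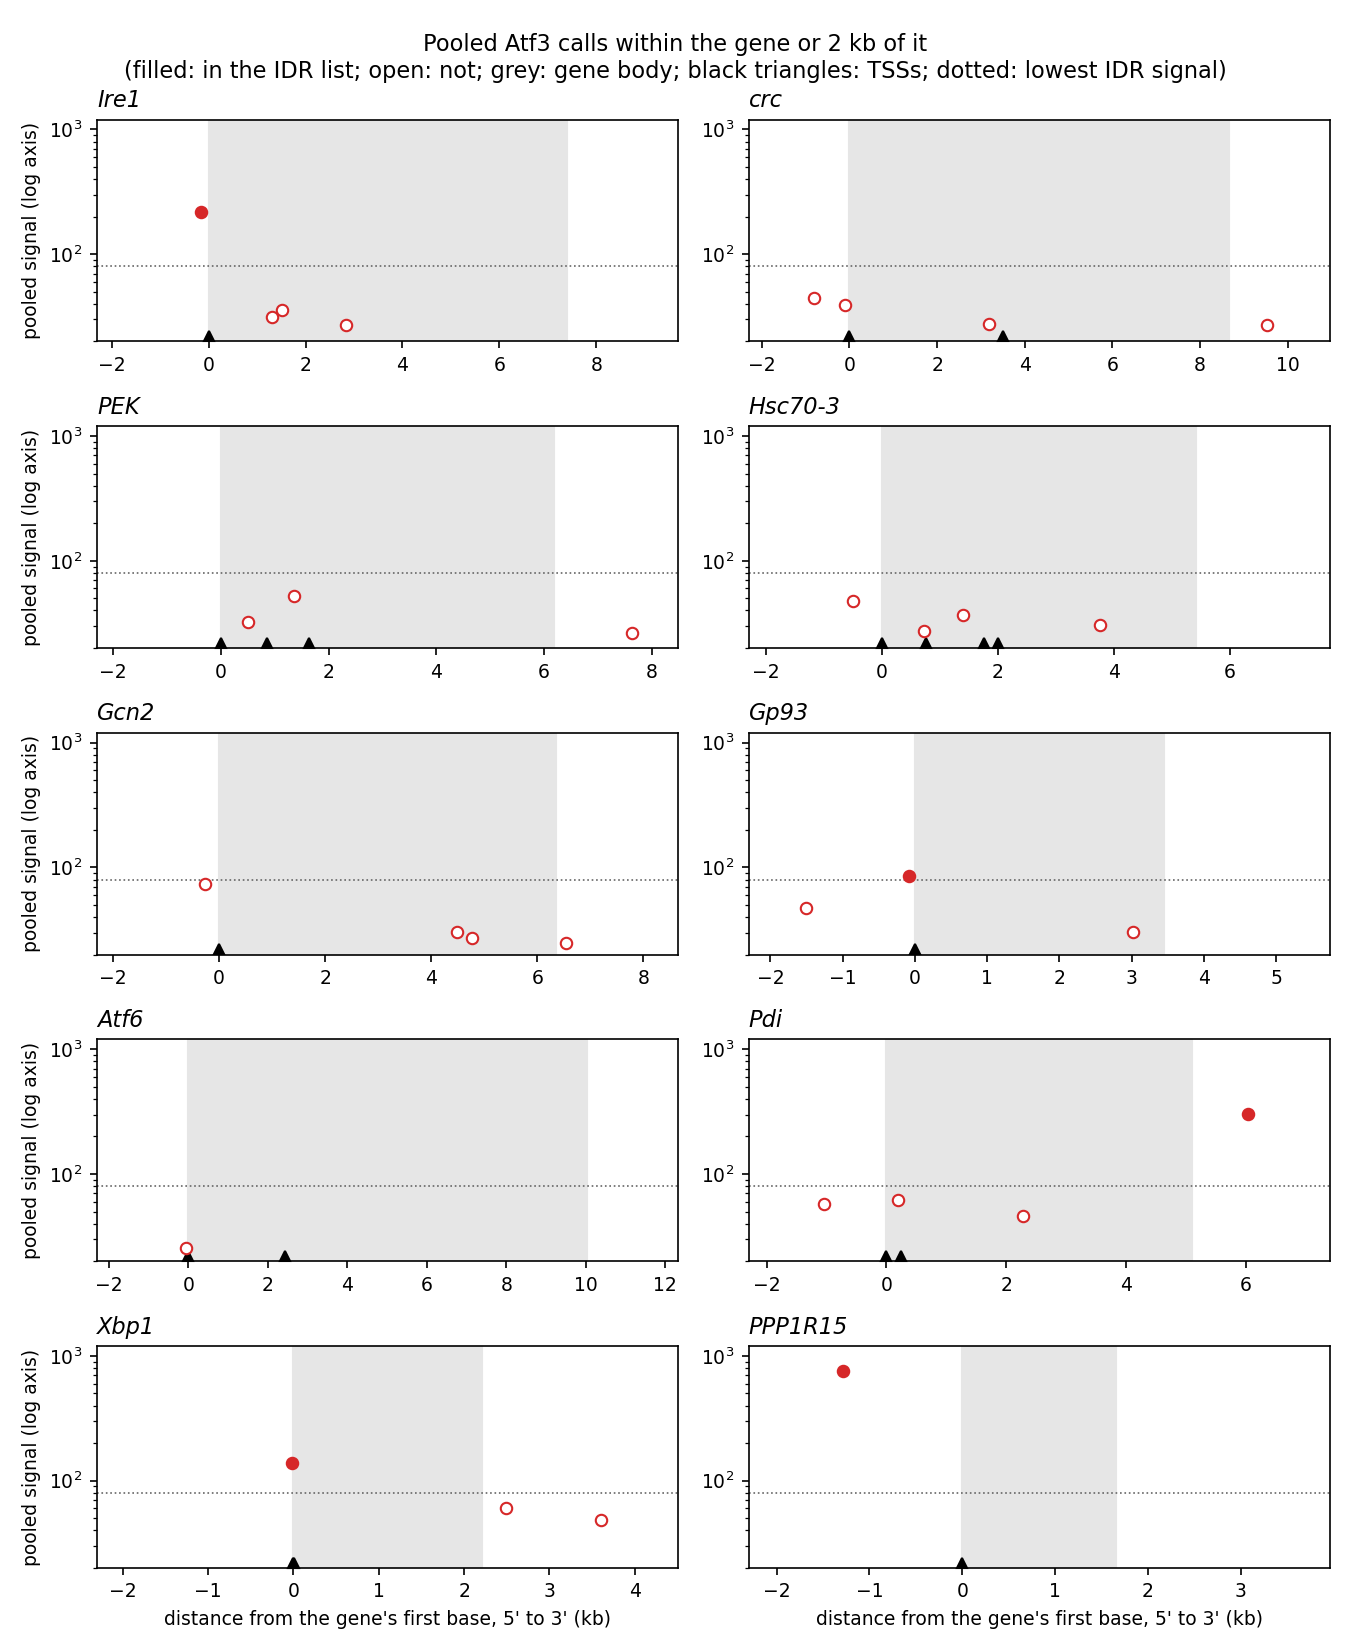
Pooled Atf3 calls at each of the 10 genes, with distance from the first base of the gene along its direction of transcription (kb) on the x axis and pooled signal on a log y axis. Filled points are in the IDR list, open points are not, grey marks the gene, black triangles mark TSSs and the dotted line is the lowest IDR signal of 79.8; the filled points lie beside the first TSS of Ire1, Xbp1 and Gp93 and outside the genes Pdi and PPP1R15.

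The sequences under 5 of these calls are shown on the strand of the stress gene, from the RefSeq release 6 genome, the dm6 build. Ire1, Gp93 and Gcn2 are shown because, with Xbp1, they had the 4 promoter calls of highest signal. In these 3 no searched motif was found, and capitals mark the 21 bases centred on the summit. The intronic promoter of Hsc70-3 and the intron of Pdi are shown because they hold a motif near the summit, with every copy in capitals; ACGTCA is the CRE core TGACGT read on the other strand. Each window spans the summit and 100 bp on either side, with bases of annotated untranslated regions left out.
Ire1 promoter, chr3R:19861355-19861555, minus strand: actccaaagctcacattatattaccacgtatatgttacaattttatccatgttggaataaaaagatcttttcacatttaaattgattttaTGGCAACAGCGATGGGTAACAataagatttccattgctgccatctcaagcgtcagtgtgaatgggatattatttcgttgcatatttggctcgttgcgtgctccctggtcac
Gp93 promoter, chr3R:27948523-27948710, plus strand: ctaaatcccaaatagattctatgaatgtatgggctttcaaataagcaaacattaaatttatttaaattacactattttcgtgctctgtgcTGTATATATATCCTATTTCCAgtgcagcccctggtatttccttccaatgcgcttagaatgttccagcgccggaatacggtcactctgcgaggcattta
Gcn2 promoter, chr3R:31395305-31395499, plus strand: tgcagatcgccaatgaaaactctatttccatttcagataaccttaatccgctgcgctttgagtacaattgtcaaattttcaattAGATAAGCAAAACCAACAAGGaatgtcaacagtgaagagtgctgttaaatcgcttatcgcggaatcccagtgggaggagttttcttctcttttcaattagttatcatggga
Hsc70-3 intronic promoter, chrX:11805628-11805828, minus strand: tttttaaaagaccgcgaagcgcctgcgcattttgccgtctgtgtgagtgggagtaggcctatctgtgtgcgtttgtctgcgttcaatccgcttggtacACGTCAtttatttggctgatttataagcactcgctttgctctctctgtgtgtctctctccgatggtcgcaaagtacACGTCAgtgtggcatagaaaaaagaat
Pdi intron, chr3L:15140463-15140663, minus strand: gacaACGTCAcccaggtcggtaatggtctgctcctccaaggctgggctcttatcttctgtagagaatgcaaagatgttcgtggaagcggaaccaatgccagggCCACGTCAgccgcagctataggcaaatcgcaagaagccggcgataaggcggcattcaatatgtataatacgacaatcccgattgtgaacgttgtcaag

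In all, 7 motifs were searched on both strands in the whole window, untranslated bases included, at all 31 pooled calls. The CRE/ATF palindrome TGACGTCA, the consensus site of ATF/CREB dimers, was in 0 of the 31 windows, against 0.811% of all pooled calls and 1.52% of IDR peaks. The AP-1 motif TGANTCA was also in 0 of 31, against 4.21% of pooled calls. The CRE core TGACGT, which forms part of the palindrome and of TGACGTGG, was in 8 of the 31 windows, against 5.4% of all pooled calls and 6.04% of IDR peaks. These 8 lay at 6 genes: 3 at Hsc70-3 and 1 each at Xbp1, Atf6, Ire1, Gcn2 and Pdi. Of these calls only the one at Xbp1 was in the IDR list, and it alone was matched in all 3 replicate lists. The calls at Atf6 and Gcn2 were matched in none of the 3. Of the 3 genes with an IDR peak at the promoter, Xbp1 alone held the core there. Within 50 bp of the summit 6 of 31 held it, against 2.75% of pooled calls.

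The core lay at the pooled summit (0 bp) of the Hsc70-3 call shown above, with another copy 76 bp away. That call was matched in replicate 1 alone, where the summit lay 94 bp from the pooled one. The other 2 Hsc70-3 windows with the core had it 37 bp from the summit, in the call upstream of the first TSS, and 38 and 48 bp from the summit. The upstream window also held the composite C/EBP-ATF motif TGATGNAA, 5 bp from the summit, which was the only match of this motif in the 31 windows and is in 2.63% of pooled calls. In the Pdi intron the core was part of TGACGTGG, a letter pattern of the mammalian sites for ATF6 and XBP1, centred 6 bp from the pooled summit. The matching summits in replicates 1 and 3 lay 54 and 51 bp from the pooled one, and replicate 2 had no match. Of all pooled calls 0.324% hold TGACGTGG. The DRE motif TATCGATA, the recognition site of DREF, a factor of growth gene promoters, occurred in 2 windows, at the promoters of Pdi and Atf6, against 1.56% of pooled calls. The ER stress element, named here without its letters, was in 0 of 31 windows and in 9 of the 27754 pooled calls.

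Ire1 encodes the ER membrane kinase and ribonuclease that splices Xbp1 mRNA. It had the strongest promoter peak of the 10 genes (FBgn0261984, chromosome 3R, start 19861255, end 19861654, pooled signal 218, rank 488). The signals in replicates 1, 2 and 3 were 81.4, 73.5 and 52.5, at ranks 654, 393 and 788 of 30000 calls, which average 612 (n = 3, lowest 393, highest 788). The summit was intergenic, 164 bp upstream of the Ire1 TSS and 155 bp from that of Mrm2, so the call cannot be assigned to one of these genes. The summits called in the replicates lay 3, 10 and 22 bp from the pooled summit.

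The introns of Ire1 held 3 weaker pooled calls, with signals of 36.0, 31.6 and 26.9 at 1511, 1300 and 2841 bp from the TSS. The first of these ranked 9334 in replicate 1 and 28008 in replicate 2 and was not found in replicate 3. The last ranked 5962 in replicate 1 and 7412 in replicate 3, where the summit lay 197 bp away, and was not found in replicate 2. None of the 4 pooled calls in introns more than 500 bp from a TSS at the 10 genes was matched in all 3 replicate lists.

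PEK encodes the fly PERK kinase, which phosphorylates eIF2alpha during ER stress (FBgn0037327, chromosome 3R). It had no IDR peak in its 2 kb flanks. Its strongest pooled call (start 5463200, end 5463599, signal 52.6, rank 5454) lay in an intron, 280 bp upstream of an internal TSS. The signals in replicates 1, 2 and 3 were 24.5, 14.3 and 11.8. The ranks were 6454, 8085 and 21315, with a mean of 11951 ± 8150 (SD, n = 3), and 7270 without replicate 3. A second promoter call, 345 bp upstream of another internal TSS, fell in coding sequence with a signal of 32.5. It was found in replicates 1 and 2, at ranks 16425 and 14187, and not in replicate 3. No pooled call lay within 500 bp of the first TSS, and the remaining call, downstream of the gene, had a signal of 26.6.

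Gcn2 encodes the eIF2alpha kinase that responds to amino acid shortage (FBgn0019990, chromosome 3R). Its promoter call (start 31395199, end 31395598) had a pooled signal of 74.0 at rank 3258, which left it below the IDR list. It ranked 2424 in replicate 1 and 1994 in replicate 3, with signals of 42.1 and 31.0, and replicate 2 had no call within 500 bp of the TSS. Replicates 1 and 3 thus ranked the call among their first 2896 while replicate 2 lacked it. Beyond the promoter, 2 calls in coding sequence had signals of 30.2 and 27.0. The weaker of them was matched in none of the 3 replicate lists. The summit of the promoter call lay 261 bp upstream of the Gcn2 TSS and 95 bp from that of its neighbour Ugt35D1. Of the 10 genes, Gcn2 also had the strongest IDR peak just outside the 2 kb limit, with a signal of 1026 at 2.64 kb beyond its 3' end, 84 bp from the TSS of PNPase.

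Atf6 encodes a sensor that is itself a transcription factor, released from its membrane by proteolysis (FBgn0033010, chromosome 2R). It had the lowest promoter signal of the 9 genes with a pooled promoter call. Its only pooled call, 56 bp upstream of the first TSS (start 5144477, end 5144876), had a signal of 25.6 at rank 25198 of 27754, close to the lowest signal in the list, 24.4. That call was matched in none of the 3 replicate lists. The only replicate call, in replicate 3, lay 726 bp upstream at rank 7122.

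**Figure D2:**
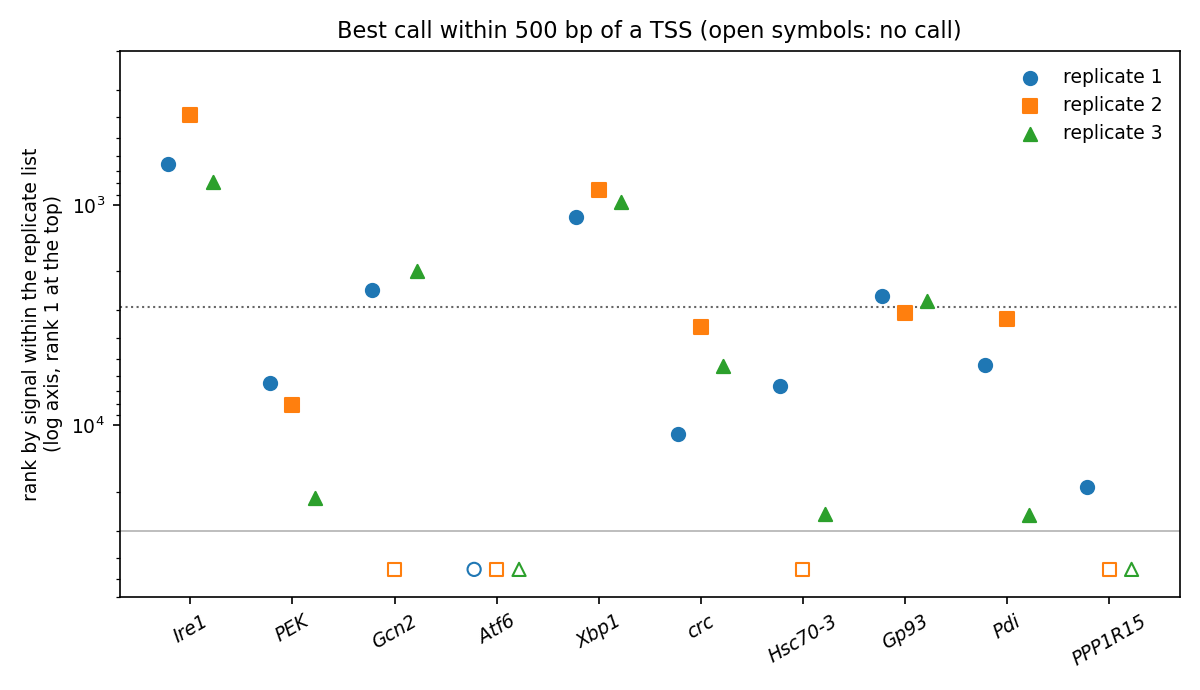
Rank by signal of the best call within 500 bp of a TSS of each gene, taken in each replicate list on its own (log y axis, rank 1 at the top). Points are single replicates, open symbols below the grey line at rank 30000 mean no call, and the dotted line is rank 2896; Ire1 and Xbp1 lie above that line in all 3 replicates, and Atf6 has no call in any.

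Xbp1 encodes the transcription factor that Ire1 activates by splicing its mRNA (FBgn0021872, chromosome 2R). Its peak (start 21143327, end 21143726, pooled signal 138, rank 1165) had its summit 18 bp upstream of the TSS, and Xbp1 was the only gene with a TSS within 500 bp. The replicate signals were 62.6, 48.2 and 47.0, at ranks 1140, 859 and 973, which average 991 ± 141 (SD, n = 3). In replicate 3 the promoter held 2 calls. The better-ranked one had its summit 194 bp from the pooled summit. When summits had to lie within 100 bp, the other was taken, at rank 3171, and the mean became 1723. The pooled peak held 2 CRE cores, 51 and 84 bp from the summit. Beyond the 3' end of Xbp1, 2 pooled calls of signal 60.7 and 48.4 lay nearest to Hmg-2, the first 165 bp from its TSS. That first call was found in all 3 replicate lists, at ranks 9071, 2838 and 29655.

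Ire1 and Xbp1 were the 2 genes with a promoter call among the first 2896 of every replicate list, against 8.12% of all protein-coding genes. The same 2 genes kept their IDR promoter peaks when any 1 replicate was left out and the peak had to share at least 50% of the shorter interval with a call among the first 2896 of both other replicates. All protein-coding genes gave 10.2% without replicate 1, 8.94% without replicate 2 and 9.26% without replicate 3. When any overlap counted, Gp93 was also kept without replicate 2. For Xbp1, the replicate 3 call that was used had its summit 194 bp from the pooled summit. The replicate 3 call within 100 bp of the pooled summit ranked 3171, outside the first 2896. At any rank, 6 of the 10 genes had a promoter call in all 3 replicate lists, against 25.1% of all protein-coding genes. These were Ire1, PEK, Xbp1, crc, Gp93 and Pdi.

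crc encodes the fly ATF4, the transcription factor whose translation rises when eIF2alpha is phosphorylated (FBgn0000370, chromosome 2L). It had 2 promoter calls in the pooled list and no IDR peak. The stronger (start 21310556, end 21310955, signal 38.9, rank 9824) lay 110 bp upstream of the first TSS. It was matched at rank 25875 in replicate 1 and 5370 in replicate 3, and not in replicate 2. The second lay in an intron 305 bp upstream of the internal TSS, which coincides with a TSS of CG46314, with a signal of 27.8, and ranked 10997 and 14128 in replicates 1 and 2. Replicate 2 instead had a call 326 bp upstream of the first TSS at rank 3568. With any overlap counted, the crc promoter call was matched in all 3 lists, at ranks 12668, 3568 and 5370. The strongest pooled call near crc, with a signal of 44.2, lay 815 bp upstream and 1 bp from the TSS of its neighbour Mondo.

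Gp93 encodes the ER chaperone known as GRP94 in mammals (FBgn0039562, chromosome 3R). It was the chaperone gene of the 3 with an IDR peak at its promoter, and that peak was among the weaker ones of the list (start 27948423, end 27948822, pooled signal 85.1, rank 2627 of 2896). Its signals were 40.4, 22.3 and 21.7 in replicates 1, 2 and 3, at ranks 2598, 3092 and 4046, which average 3245 ± 736 (SD, n = 3). The summit lay 88 bp upstream of the TSS, and no other gene had a TSS within 500 bp. Another call in replicate 3, 345 bp upstream, ranked 2740. A pooled call 1504 bp upstream, with a signal of 47.5, lay nearer to mfrn, and 1 in coding sequence had a signal of 30.3.

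Hsc70-3 encodes BiP, the main Hsp70 chaperone of the ER, whose gene is a standard marker of the unfolded protein response (FBgn0001218, chromosome X). It has 4 TSSs and had 4 pooled calls but no IDR peak. The strongest (start 11807425, end 11807824, signal 47.6, rank 6503) lay 508 bp upstream of the first TSS, just outside the promoter limit. It ranked 5258 in replicate 1 and 25251 in replicate 3. The promoter call shown by its sequence had a signal of 37.1 and fell in an intron 364 bp upstream of an internal TSS. A second promoter call, of signal 27.6, fell in an intron 40 bp upstream of another. Both were matched in replicate 1 alone, at ranks 6664 and 12760. The fourth call, in coding sequence, had a signal of 30.3 and ranked 7491 in replicate 1 and 18062 in replicate 3. Replicate 1 held 7 calls at this gene, replicate 3 held 2 and replicate 2 held 0.

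Pdi encodes protein disulfide isomerase, which forms disulfide bonds in folding proteins (FBgn0286818, chromosome 3L). Its promoter call (start 15142450, end 15142849, signal 62.3, rank 4205) had its summit in the 5' UTR, 58 bp upstream of the downstream TSS. The signals in replicates 1, 2 and 3 were 27.3, 21.5 and 10.9. The ranks were 5299, 3277 and 25615, with a mean of 11397 ± 12355 (SD, n = 3), and 4288 without replicate 3. The intronic call shown above had a signal of 45.7 and was found at rank 3651 in replicate 1, at rank 26649 in replicate 3 and not in replicate 2. The IDR peak near Pdi was far stronger (start 15136722, end 15136901, pooled signal 302, rank 245). Its signals were 105, 90.3 and 102 in replicates 1, 2 and 3, at ranks 363, 255 and 203, which average 274 ± 82 (SD, n = 3). It lay downstream of Pdi in the 5' UTR of CG12316, 131 bp from the TSS of that gene. It is therefore listed as a peak near Pdi and not at its promoter. A pooled call 1041 bp upstream of Pdi, with a signal of 57.6, was found in replicate 1 alone, at rank 2545, and lay within 500 bp of the TSSs of Pex3 and CG32147.

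PPP1R15 encodes the regulatory subunit that directs protein phosphatase 1 to eIF2alpha, which reverses the phosphorylation made by PEK and Gcn2 (FBgn0034948, chromosome 2R). The peak near it was the strongest at any of the 10 genes (start 23978399, end 23978709, pooled signal 751, rank 26). Its signals were 276, 227 and 249 in replicates 1, 2 and 3, at ranks 31, 28 and 20, which average 26 ± 6 (SD, n = 3). The summit was intergenic, 264 bp from the TSS of Sox14, a transcription factor gene, and 1282 bp upstream of the TSS of PPP1R15. At the PPP1R15 promoter itself the pooled list had no call, and replicate 1 alone had 1, 117 bp upstream at rank 19089.

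The replicate lists differed in which of these calls they held. All 5 IDR peaks at these genes were matched in all 3 replicate lists by an overlap of at least 50% of the shorter interval. The same held for 94.6% of all 1557 IDR peaks within 500 bp of a TSS. Of the 26 pooled calls outside the IDR list, 3 were matched in this way: the calls at the promoters of PEK and Pdi and the first call downstream of Xbp1. For promoter calls outside the IDR list the count was 2 of 9, and among all such pooled promoter calls the share was 19.4%. When the strongest pooled promoter call of each gene was considered, 5 of the 9 genes with one were matched in all 3 lists, against 44.8% of protein-coding genes with one. Of the 26 calls, replicate 1 lacked 4, replicate 2 lacked 17 and replicate 3 lacked 11. These counts and the 3 of 26 have no counterpart here over all pooled calls outside the IDR list. They describe these calls only, and whether other genes differ was not tested.

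The 3 replicate lists have 30000 calls each but gave different numbers at these genes. Replicate 1 had 53 calls, replicate 2 had 22 and replicate 3 had 32. Per gene this is 5.30, 2.20 and 3.20 calls, against means of 3.16, 2.82 and 2.77 over all protein-coding genes. Promoters held 18 of the calls of replicate 1, 10 of replicate 2 and 11 of replicate 3. Introns held 8, 1 and 3. Over the whole lists, promoter calls at protein-coding genes made up 28.1% of replicate 1, 19.8% of replicate 2 and 18.9% of replicate 3. Unlike the counts at the 10 genes, these shares are not limited to calls within 2 kb of a gene. No read totals are at hand to set beside these counts.

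**Figure D3:**
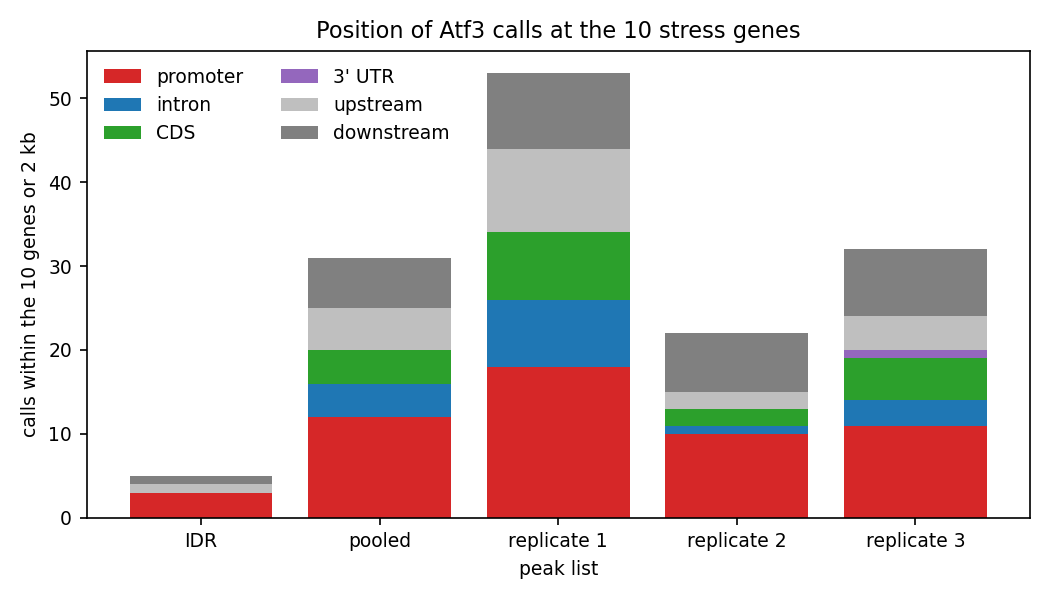
Number of calls within the 10 genes or 2 kb of them in each peak list (y axis), by position relative to the gene (colours); promoter means within 500 bp of a TSS. Replicate 1 has 53 calls, 18 of them at promoters, against 22 in replicate 2 and 32 in replicate 3.

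Just beyond the 2 kb limit and within 5 kb, Gcn2, Ire1 and PEK each had an IDR peak. Besides the one at PNPase, these were a peak of signal 129 at 3.22 kb from Ire1 (19 bp from the TSS of CG4686) and a peak of signal 85.9 at 2.37 kb from PEK (20 bp from the TSS of RpL35A, a ribosomal protein gene). All 3 lay closer to the TSS of another gene, and with the 5 kb limit 7 of the 10 genes had an IDR peak, against 37.1% of all protein-coding genes.

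Other genes of ER folding, ER-associated degradation and the integrated stress response were read from a list of 38, of which 37 were matched in the annotation. An IDR summit lay within 500 bp of a TSS in 14 of the 37, beside the 14.2% of all protein-coding genes given above, and a pooled call in 30, beside 46.8%. When only the nearest TSS counted the number was 9, beside 1401 of 13945 over all protein-coding genes. It was also 9 without each replicate in turn, beside 8.94% to 10.2% of all protein-coding genes. The genes differed, and 8 were in all 3 of these sets. Of the 8, 5 were also the nearest gene: Der-1, Herp, Ldh, P58IPK and Sesn. The 8 and the 5 have no counterpart here over all protein-coding genes. The Sesn summit was equally near to a TSS of CG46429. The list was drawn up with earlier results on some of its genes known, Irbp18 among them, so its count is a description.

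In the integrated stress response 6 of 12 matched genes had an IDR promoter peak, beside 14.2% of all protein-coding genes. With the nearest TSS only, ties with a neighbour included, there were 4, and 3 were kept without each replicate in turn: Irbp18, Ldh and Sesn. Sesn, the fly sestrin, a stress-induced inhibitor of TOR signalling, was the strongest (signal 537, replicate ranks 46, 58 and 97). Irbp18, a C/EBP-like partner of crc, had a signal of 318 and ranks of 333, 190 and 234, with its summit nearest to APP-BP1. Ldh, lactate dehydrogenase, had a signal of 177 (ranks 1473, 847 and 470). AsnS, asparagine synthetase, had a signal of 123, nearest to chb. Thor, the 4E-BP that restrains cap-dependent translation, had a signal of 122 and ranks of 1045, 6407 and 1810, so replicate 2 stood well below the others. The genes for eIF2alpha and for the eIF2B epsilon subunit had no pooled promoter call.

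In ER-associated degradation 4 of 10 genes had an IDR promoter peak, of which 2 were the nearest gene and 3 were kept without each replicate in turn. Hrd3, a scaffold of the Hrd1 ubiquitin ligase, led with a signal of 377 (ranks 294, 96 and 109), although its summit was nearer to PTPMT1. Herp, a membrane protein of the same complex, had a signal of 295 with the summit 73 bp downstream of its own TSS (ranks 342, 269 and 214). In ER folding 3 of 10 genes had one, of which 2 were the nearest gene and 2 were kept without each replicate in turn. The highest was P58IPK, a co-chaperone of BiP, with a signal of 155 (ranks 706, 1811 and 1285). It was followed by prtp, a thioredoxin-domain protein, with 139 (ranks 1811, 491 and 1429), although its summit was nearer to the long noncoding RNA gene lncRNA:CR45618. Among 5 genes of signalling and processing, Traf4 had one, of signal 81.2. At the required overlap of 50%, this peak was lost whichever replicate was left out. The best Traf4 promoter calls ranked 2011, 2774 and 3287 in replicates 1, 2 and 3, the first 2 of them within the first 2896.

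**Figure D4:**
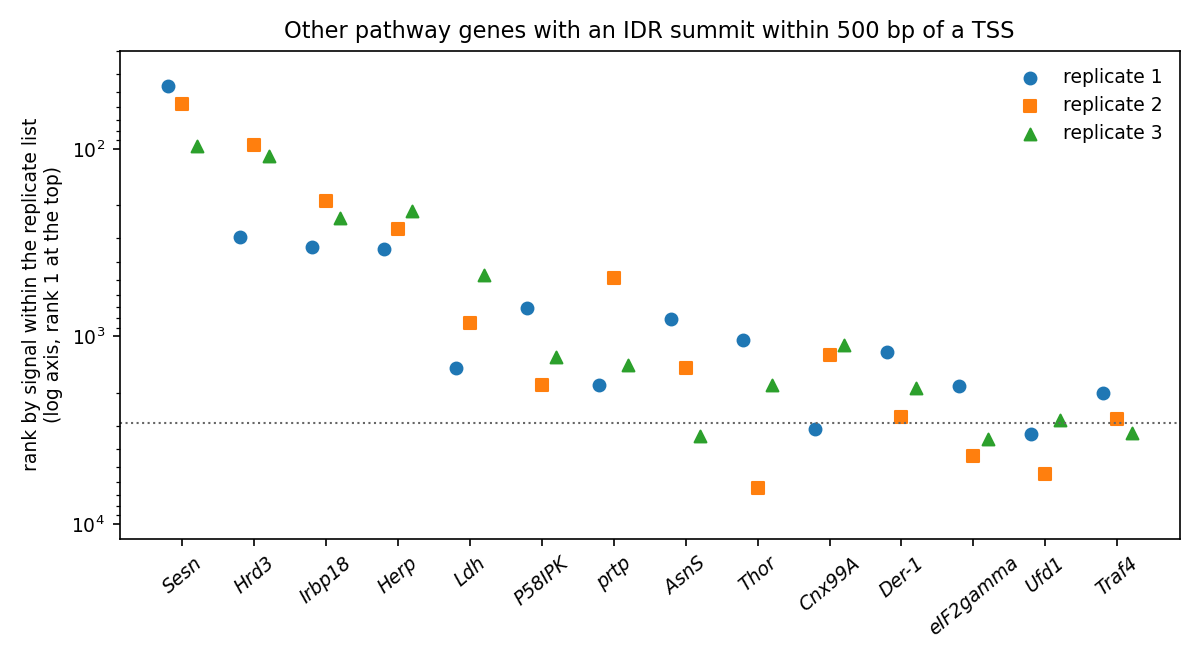
Rank by signal of the best call within 500 bp of a TSS for the 14 other pathway genes with an IDR promoter peak, ordered by signal from left to right (log y axis, rank 1 at the top). Points are single replicates and the dotted line is rank 2896; Sesn ranks 46, 58 and 97, and Thor has the widest gap, with rank 6407 in replicate 2.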

How the data were processed

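The submitters made the peak lists from alignments of 3 biological replicates to dm6; each replicate list and the pooled list used the same control file, per the file notes and labels. How reads were aligned, peaks called and the IDR cut-off set is not stated in the labels or file notes. The signal value of each call was deposited by the authors and was used only to rank calls within a list. The notes describe the replicate and pooled lists as peaks with background. Replicate depth is unknown, as no file used here gives read totals. Lists made on dm3 were not used.

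Genes and 23722 TSSs came from Ensembl release 115, leaving out pseudogenes and transposable elements, and sequence from the release 6 RefSeq genome. A summit was column 2 plus column 10, written 1-based. A pooled call was matched in a replicate list when the overlap reached 50% of the shorter interval, taking the best rank. The text names the 10 genes, neighbours nearer to their peaks, and up to 8 other pathway genes with the highest IDR promoter signal. Der-1, Thor, Traf4, eIF2alpha, eIF2Bepsilon and further neighbouring genes were added after their values were seen. The genes and lists were chosen with earlier results of these data known. Assignment and matching were tested on simulated data. Python 3.11.15, numpy 2.4.6, pandas 2.3.3 and matplotlib 3.10.9 were used.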

Additional observations from a re-analysis of the deposited data

How the results depend on the processing

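Of 64 alternative values for 11 results, 55 stayed within 1.5 times the main count or 1 SD of the main rank and 9 moved. The mean ranks without 1 replicate could not move, because dropping 1 of 3 values always shifts the mean by less than 1 SD. Shares of all protein-coding genes under the same rule stand in brackets. The 3 genes with an IDR promoter peak fell to 2 with the nearest TSS only (1401 of 13945) and without each replicate in turn (8.94% to 10.2%). A fall from 3 to 2 is exactly 1.5 times and was not counted as moved. The genes with an IDR summit in the gene or 2 kb numbered 2 with the nearest TSS only (13.6%), 4 with a 1 kb flank (21.4%), 7 with 5 kb (37.1%) and 4 without replicate 1 (19.1%), 2 (17.8%) or 3 (17.9%). Pooled promoter calls that also had to be matched in both other replicate lists were present at 5 genes without replicate 1 (24.3%), 7 without replicate 2 (27.1%) and 6 without replicate 3 (27.9%). Of the other pathway genes, 9 had an IDR promoter peak with the nearest TSS only (1401 of 13945), 9 without each replicate in turn (8.94% to 10.2%), and 9 to 10 when any overlap counted there (9.01% to 10.3%). The mean rank of the Xbp1 call became 1723 with summits within 100 bp. The cause was not tested, except that requiring a call in both other lists can only lower these counts. The other motif windows, any overlap without a replicate, and leaving out replicates for whole-gene counts, pooled counts, counts of replicate lists and mean ranks, were chosen after seeing the data. No paired analysis was possible because there is 1 group. Precision is limited by the 3 replicates and by the relaxed lists, where low ranks include background.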
